A study of Homo sapiens with 12 samples.

Results

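The transforming growth factor beta (TGF-beta) ligands, receptors and SMAD targets described here are 10 genes, TGFB1, TGFB2, INHBA, TGFBR1, TGFBR2, SMAD3, SMAD6, SMAD7, ID1 and ID3, out of 58302 genes in the expression table. The rule that picks them is their gene names, in a list drawn up with earlier results of these data known, and all 10 were found once in the table. All 10 also passed the filter on low values, which kept 16027 genes.

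Messenger RNA was sequenced from 12 libraries of 4 cell lines, with 3 libraries per line. The wt group was TPC1, a human papillary thyroid carcinoma line that carries a RET gene fusion. The 3 other groups, D11, WB1 and TD5, were TPC1 derivatives with the genotype Dicer1 (+/-), made by transient transfection of a CRISPR/Cas9 plasmid whose guide lies in exon 11 of DICER1, the ribonuclease that cuts microRNA precursors to their mature form, and each clone was expanded from a single cell and kept 1 intact allele. All lines were kept in RPMI medium with fetal bovine serum, itself a source of TGF-beta family ligands, and received no other treatment. The TPC1 libraries came from the parental line and not from a clone taken through the same editing and cloning, so that the edit, the cloning and the drift of a single cell's descendants cannot be told apart. The labels do not say whether the 3 libraries of a line were separate cultures, so p-values measure the spread between libraries, which may be technical.

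The values are scaled reads: gene counts that the authors brought to 20000000 aligned reads per library and rounded to whole numbers. The steps between the low values put the depth at 12700000 to 21020000 reads per library (13750000 to 21020000 in TPC1, 14580000 to 16790000 in D11, 16460000 to 17330000 in WB1 and 12700000 to 15900000 in TD5). A count of 3 reads, the limit taken for a gene read at 0, corresponds to 2.85 to 4.72 scaled reads, and the lowest value of any of the 10 genes was 59. DICER1 stood at 1360, 1129 and 1101 scaled reads in TPC1, at 977, 1051 and 1093 in D11, at 881, 939 and 815 in WB1 and at 643, 627 and 809 in TD5. All 9 clone libraries were below all TPC1 libraries, with log2 fold changes of -0.19 in D11 (limma adjusted p = 0.138), -0.43 in WB1 (limma adjusted p = 0.00404) and -0.77 in TD5 (limma adjusted p = 9.02e-05), and these reads cover the whole gene and do not show the edited site. The thyroid transcription factor gene PAX8 was read at 7248 to 9879 scaled reads and the epithelial keratin gene KRT8 at 10280 to 16274, whereas TSHR, SLC5A5 and NKX2-1 were at 0 in every library and CDH1 and EPCAM reached at most 2 and 5. The summed endothelial and leukocyte markers reached at most 0.45 scaled reads per 1000000 in any library. The summed fibroblast markers reached 12.9 to 18.3 in TPC1, 8.39 to 10.3 in D11, 11.9 to 17.7 in WB1 and 9.34 to 11.0 in TD5. All D11 and TD5 libraries were below TPC1 for this sum, as they were for TGFB2 and INHBA. In WB1 the sum overlapped TPC1, while the TGFB2 mean was lower there too. The summed epithelial markers stood at 1070 to 1220 in TPC1. Every clone library was lower, at 858 to 933 in D11, 905 to 928 in WB1 and 844 to 966 in TD5. Summed thyroid markers reached 382 to 447 in TPC1, 393 to 418 in D11, 434 to 506 in WB1 and 461 to 501 in TD5. Of the 7 fibroblast genes DCN was at 0 in every library and COL1A2 and COL3A1 reached at most 2 scaled reads, while LUM ranged from 0 to 212. The part of any of these marker lists in the results was not tested.

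TGF-beta ligands are secreted in a latent complex, and once freed they bind the type II receptor TGFBR2, which recruits and phosphorylates the type I receptor TGFBR1. TGFBR1 phosphorylates SMAD2 and SMAD3, which join SMAD4 and act in the nucleus, where they raise, among other genes, the inhibitor SMAD7, while the related bone morphogenetic protein (BMP) branch works through SMAD1 and SMAD5 and raises ID1, ID3 and the inhibitor SMAD6. In thyroid follicular cells TGF-beta is known as a restraint on growth, and in carcinoma lines it is studied for its part in epithelial to mesenchymal transition.

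The 10 genes spanned a wide range of levels. Per kilobase of exon and per 1000000 scaled reads, TPC1 held 53.3 ± 6.69 of TGFBR2, 52.5 ± 10.0 of ID1 and 49.1 ± 14.0 of ID3 (SD, n = 3 here and throughout). These highest levels overlapped in their spread, and so did ID3 and the next gene, SMAD3, at 34.9 ± 3.66. TGFB1 followed at 27.1 ± 1.32, a level apart from both neighbours. TGFB2 at 5.90 ± 1.20 overlapped in its spread with both its neighbours, TGFBR1 at 6.79 ± 0.499 and SMAD7 at 5.05 ± 0.880. SMAD6 at 2.10 ± 0.273 and INHBA at 1.01 ± 0.105 were the lowest. TGFBR2 was thus read at a higher level per kilobase than its partner TGFBR1 in every line, at 68.0 ± 2.96 against 8.56 ± 0.325 in D11, 74.6 ± 3.14 against 8.25 ± 0.569 in WB1 and 62.9 ± 6.79 against 7.21 ± 1.39 in TD5.

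**Figure D1:**
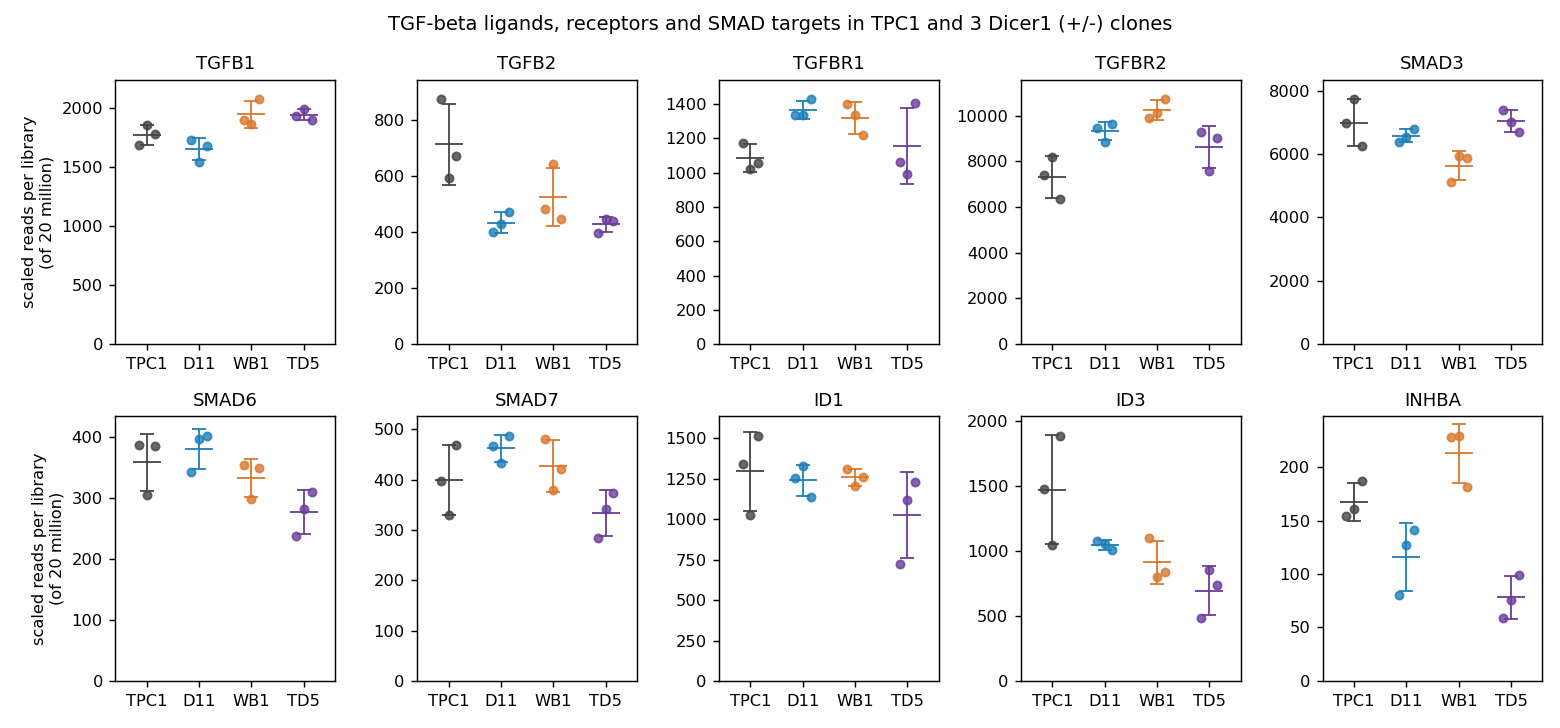
Scaled reads per library (vertical axes, of 20000000, each starting at 0) of the 10 genes in TPC1, D11, WB1 and TD5; dots are libraries, the short line is the mean and the bar is 1 SD (n = 3). TGFBR2 rose from 6342 to 8169 in TPC1 to between 9873 and 10711 in WB1, and INHBA was lowest in TD5, at 59 to 99.

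Each clone was compared with TPC1 to ask which of the 10 genes differed from the parental line after loss of 1 DICER1 allele. A gene was called at a limma adjusted p under 0.05 with a change of at least 1.5-fold on the log2(value per 1000000 + 1) scale. Against TPC1, no gene of the 10 was called higher in any clone, TGFB2 was called lower in D11, ID3 in WB1, and TGFB2, ID3 and INHBA in TD5. No gene was therefore called in all 3 clones. The comparisons share their 3 TPC1 libraries.

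In D11, 1 of 10 was called lower where 1.95% of all tested genes were, and 0 were called higher where 2.89% were. In WB1 the counts were 1 lower, against 1.59% of tested genes, and 0 higher, against 3.39%. In TD5, 3 were lower, against 1.48%, and 0 higher, against 1.12%. By adjusted p alone, 4 of 10 passed in D11 and 5 of 10 in WB1, where 33.3% and 30.9% of tested genes passed, shares near the background, and 3 of 10 passed in TD5 against 11.9%. The libraries of clone and TPC1 did not overlap for 4 of 10 genes in each clone, where this held for 51.1% of tested genes in D11, 45.7% in WB1 and 27.1% in TD5. The median log2 fold change of the 10 genes was -0.07 in D11, 0.04 in WB1 and -0.30 in TD5, beside 0.05, 0.06 and 0.00059 over all tested genes.

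**Figure D2:**
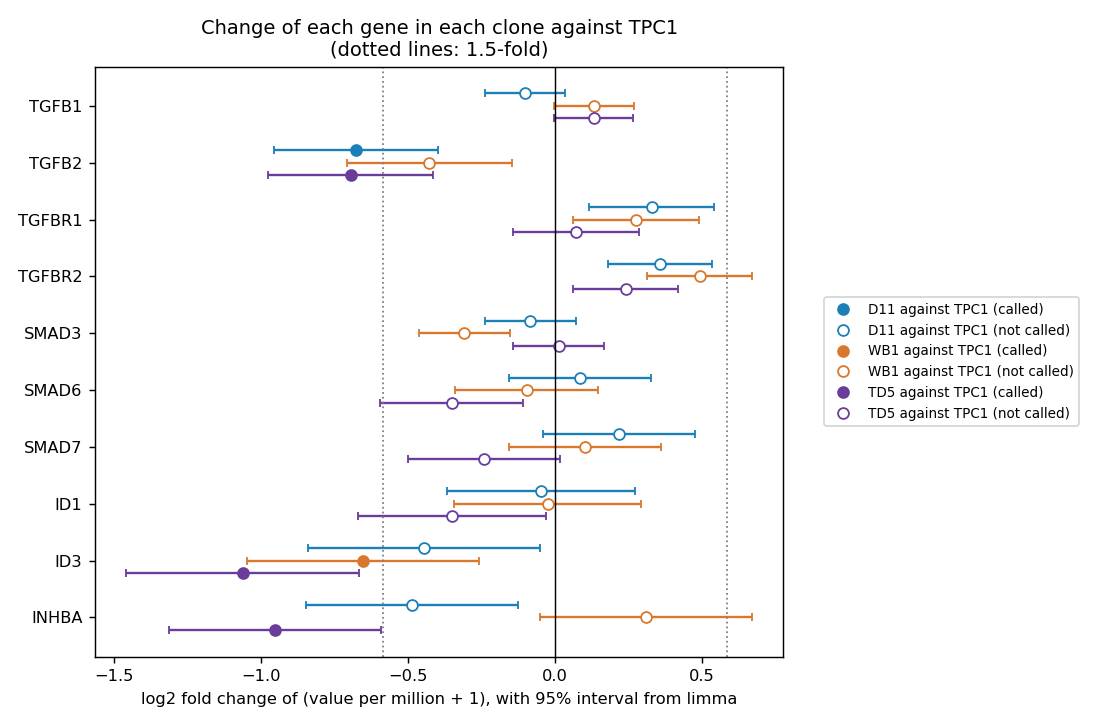
Log2 fold change of (value per 1000000 + 1) in each clone against TPC1 (horizontal axis) for the 10 genes, with 95% intervals from limma; filled points were called, open points were not, and dotted lines mark 1.5-fold. The 5 filled points, TGFB2 in D11 and TD5, ID3 in WB1 and TD5 and INHBA in TD5, all lie to the left of 0, and the TGFBR2 points lie to its right in every clone without reaching the 1.5-fold line.

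Among the ligands, TGFB2 was lower in the clones, INHBA differed in level from clone to clone and TGFB1 stayed within 93.2 to 110% of the TPC1 mean. TGFB2 (ENSG00000092969, GRCh38 chr1:218345336-218444619, plus strand) encodes the TGF-beta isoform that depends on a co-receptor for high-affinity binding to TGFBR2. It was read at 875, 593 and 674 scaled reads in TPC1, at 400, 430 and 474 in D11, at 484, 643 and 449 in WB1 and at 397, 446 and 442 in TD5. Every library of D11 and TD5 lay below every TPC1 library, and in WB1 only replicate 2 reached into the TPC1 range. The TPC1 mean of 714 ± 145 fell to 435 ± 37.2 in D11, a log2 fold change of -0.68 (95% interval -0.96 to -0.40, limma adjusted p = 0.00158), and to 428 ± 27.2 in TD5, a log2 fold change of -0.69 (-0.97 to -0.42, limma adjusted p = 0.00247). In WB1 the mean was 525 ± 103 and the log2 fold change -0.43 (-0.71 to -0.15, limma adjusted p = 0.0226), under 1.5-fold and not called. RNA was taken from whole cultures, so fewer cells with TGFB2 and less TGFB2 per cell cannot be told apart, here or for the other genes. The 3 clones were within their spread of each other, the widest of the 3 differences being TD5 against WB1 at -0.27 (-0.55 to 0.01). Both calls depended on TPC1 replicate 1, the deepest library at 21020000 reads and the highest for TGFB2: without it the log2 fold changes were -0.52 in D11 and -0.54 in TD5, both under 1.5-fold, with limma adjusted p = 0.00825 and 0.0193. The WB1 value without that library was -0.27 (limma adjusted p = 0.120). TGFB2 shares its strand and part of its sequence with TGFB2-OT1, which was read at 44 to 84 scaled reads, and lies opposite TGFB2-AS1, at 9 to 55, so the split of reads among them is uncertain.

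INHBA (ENSG00000122641, chr7:41667168-41705834, minus strand) encodes the inhibin beta A chain, which pairs with itself to form activin A, a ligand that signals through SMAD2 and SMAD3 by its own receptors. It was read at 154, 161 and 187 scaled reads in TPC1, at 80, 127 and 141 in D11, at 228, 229 and 181 in WB1 and at 59, 76 and 99 in TD5. All D11 and TD5 libraries were below all TPC1 libraries, while 2 of 3 WB1 libraries were above them. TD5 stood at 46.6% of the TPC1 mean, a log2 fold change of -0.95 (-1.31 to -0.59, limma adjusted p = 0.00156), called lower. D11 stood at 69.3%, with a log2 fold change of -0.49 (-0.85 to -0.13, limma adjusted p = 0.0372), under 1.5-fold, and it rested on single libraries: it was called without D11 replicate 3, at -0.62 (limma adjusted p = 0.0255), but stood at -0.28 without D11 replicate 1 (limma adjusted p = 0.195) and at -0.41 without TPC1 replicate 3 (limma adjusted p = 0.139). WB1 stood at 127%, with a log2 fold change of 0.31 (-0.05 to 0.67, limma adjusted p = 0.174). In order of level the lines ran WB1, TPC1, D11 and TD5, and neither WB1 and TPC1 nor D11 and TD5 were told apart at an adjusted p of 0.05.

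TGFB1 (ENSG00000105329, chr19:41301587-41353922, minus strand), the most widely expressed TGF-beta isoform, was read at 1681, 1854 and 1773 scaled reads in TPC1, at 1729, 1544 and 1674 in D11, at 1899, 1860 and 2070 in WB1 and at 1933, 1988 and 1895 in TD5. The WB1 and TD5 libraries were all above TPC1, by a small margin, and 2 of 3 D11 libraries were below it. Against TPC1 the log2 fold changes were -0.10 in D11 (-0.24 to 0.03), 0.13 in WB1 (-0.0025 to 0.27) and 0.13 in TD5 (-0.0044 to 0.27), with limma adjusted p = 0.232, 0.124 and 0.200. With a correction of each library for the GC content of genes, chosen after seeing the data, the WB1 value was 0.26 (limma adjusted p = 0.00548). The TGFB1 locus overlaps HNRNPUL1 on the opposite strand, a gene read at 6730 to 8149 scaled reads, and whether the counting used strand is not given in the sources used here.

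Of the receptors, TGFBR2 was above all TPC1 libraries in 8 of 9 clone libraries, with mean differences under 1.5-fold, TGFBR1 was so in 7 of 9, and neither was called. Such separation was common: of all tested genes, 51.1% in D11, 45.7% in WB1 and 27.1% in TD5 did not overlap the same TPC1 libraries. The share of genes with such counts over the 9 clone libraries was not computed. TGFBR2 (ENSG00000163513, chr3:30606601-30694142, plus strand), the ligand-binding kinase of the complex, was read at 7409, 8169 and 6342 scaled reads in TPC1, at 9456, 8865 and 9643 in D11, at 9873, 10117 and 10711 in WB1 and at 9302, 7563 and 9006 in TD5. All libraries of D11 and WB1 were above all TPC1 libraries, and TD5 replicate 2 fell inside the TPC1 range. The mean was 128% of TPC1 in D11, a log2 fold change of 0.36 (0.18 to 0.54, limma adjusted p = 0.00513), and 140% in WB1, a log2 fold change of 0.49 (0.31 to 0.67, limma adjusted p = 0.000573). In TD5 it was 118%, with a log2 fold change of 0.24 (0.06 to 0.42, limma adjusted p = 0.0743). The order of the means was WB1, D11, TD5 and TPC1, and no 2 clones differed at an adjusted p of 0.05.

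TGFBR1 (ENSG00000106799, chr9:99104038-99154192, plus strand), the kinase that phosphorylates SMAD2 and SMAD3, was read at 1176, 1024 and 1058 scaled reads in TPC1, at 1338, 1338 and 1428 in D11, at 1401, 1335 and 1221 in WB1 and at 1060, 994 and 1407 in TD5. D11 and WB1 did not overlap TPC1, whereas TD5 held both the lowest library of all and 1 of the highest. The log2 fold changes were 0.33 in D11 (0.12 to 0.54, limma adjusted p = 0.0200), 0.28 in WB1 (0.06 to 0.49, limma adjusted p = 0.0468) and 0.07 in TD5 (-0.14 to 0.28, limma adjusted p = 0.705). TGFBR1 has a low GC content, 38.8% of the bases of its main transcript. The same correction for GC content took its log2 fold change to 0.07 in D11 and 0.07 in WB1, with limma adjusted p = 0.425 and 0.476. Without TPC1 replicate 2 or 3, too, both values missed an adjusted p of 0.05, at 0.29 and 0.31 in D11 (limma adjusted p = 0.0735 and 0.0700) and 0.24 and 0.26 in WB1 (limma adjusted p = 0.142 and 0.131). Under the GC correction TGFBR2, with 47.0% GC, stayed at 0.29, 0.42 and 0.24 in D11, WB1 and TD5, with limma adjusted p = 0.00785, 0.000424 and 0.0310.

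DICER1 acts through microRNAs, which pair by their seed (bases 2 to 8) with sites in 3′ UTRs, and microRNAs themselves were not measured here. Of 5 microRNA families chosen by hand for their place in thyroid cancer or TGF-beta signalling, the mature sequences of the 4 with a site in any of the 10 genes are shown, from RefSeq, with the seed in capitals.
hsa-let-7a-5p: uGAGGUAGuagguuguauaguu
hsa-miR-17-5p: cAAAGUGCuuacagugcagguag
hsa-miR-21-5p: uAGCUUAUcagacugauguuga
hsa-miR-145-5p: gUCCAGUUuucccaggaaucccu
No seed is shared among them. The reverse complement of each seed was searched on the sense strand of the 3′ UTRs of the main transcripts (GENCODE v44, GRCh38) of 12036 tested genes. The let-7 site CTACCTC was found in 11.6% of those UTRs and in TGFBR1 alone of the 10 genes, the miR-17 site GCACTTT in 25.9% and in TGFB1, TGFBR2, SMAD6, SMAD7 and INHBA, the miR-21 site ATAAGCT in 10.2% and in TGFB2, TGFBR1, TGFBR2 and SMAD7, and the miR-145 site AACTGGA in 15.7% and in TGFB2, TGFBR1, TGFBR2 and SMAD3. The miR-146b site AGTTCTC, present in 13.0% of UTRs, was in none of the 10. The sites of both receptors, each with matches for more families than any other of the 10 genes, are shown with the seed match in capitals.
TGFBR1 site for hsa-let-7a-5p, chr9:99149366-99149387, plus strand: ggaggtcaattgttCTACCTCa
TGFBR1 site for hsa-miR-21-5p, chr9:99153476-99153497, plus strand: gaggagaaaaaaacATAAGCTg
TGFBR1 site for hsa-miR-145-5p, chr9:99153964-99153985, plus strand: ttggcttacaagagAACTGGAa
TGFBR2 site for hsa-miR-17-5p, chr3:30691853-30691874, plus strand: agccaataacatttGCACTTTa
TGFBR2 site for hsa-miR-21-5p, chr3:30691791-30691812, plus strand: gacattgtcataggATAAGCTg
TGFBR2 site for hsa-miR-145-5p, chr3:30693779-30693800, plus strand: gggttatcagcataAACTGGAa
Both receptors held sites for 3 of the 5 families, in 3′ UTRs of 4887 and 2543 bases where the median UTR had 1413. TGFB2, which was lower in the clones, held sites for miR-21 and miR-145 as well. These matches are letters in a window, and whether any of them acts in TPC1 was not tested.

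SMAD3 (ENSG00000166949, chr15:67063763-67195173, plus strand), the receptor-activated SMAD that binds DNA, passed an adjusted p of 0.05 against TPC1 in WB1, by less than 1.5-fold. It was read at 6995, 7728 and 6263 scaled reads in TPC1, at 6393, 6542 and 6803 in D11, at 5121, 5926 and 5861 in WB1 and at 7387, 7026 and 6692 in TD5. Every WB1 library lay below every other library of the series. The log2 fold change against TPC1 was -0.31 in WB1 (-0.46 to -0.15, limma adjusted p = 0.00524), -0.08 in D11 (-0.24 to 0.07) and 0.01 in TD5 (-0.14 to 0.17). TD5 against WB1 differed by 0.32 (0.17 to 0.48, limma adjusted p = 0.00981).

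Of the genes that the pathway induces, ID3 was called lower in 2 clones, and ID1, SMAD6 and SMAD7 were called in none. ID3 (ENSG00000117318, chr1:23557926-23559501, minus strand) encodes a helix-loop-helix protein without a DNA-binding region that holds back differentiation factors. It was read at 1480, 1048 and 1885 scaled reads in TPC1, at 1077, 1056 and 1006 in D11, at 1103, 800 and 835 in WB1 and at 486, 857 and 735 in TD5. TPC1 spread widely, and its lowest library, replicate 2, overlapped D11 and WB1, while every TD5 library lay below all TPC1 and D11 libraries. TD5 stood at 47.1% of the TPC1 mean, a log2 fold change of -1.06 (-1.46 to -0.67, limma adjusted p = 0.00138), and WB1 at 62.0%, a log2 fold change of -0.65 (-1.05 to -0.26, limma adjusted p = 0.0153). D11 stood at 71.1%, with a log2 fold change of -0.44 (-0.84 to -0.05, limma adjusted p = 0.0761). Single libraries decided the calls outside TD5: WB1 was not called without TPC1 replicate 3 (-0.46) or WB1 replicate 2 (-0.57), with limma adjusted p = 0.104 and 0.0673, and D11 was called without TPC1 replicate 2 (-0.67, limma adjusted p = 0.0141) and stood at -0.25 without TPC1 replicate 3 (limma adjusted p = 0.358).

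ID1 (ENSG00000125968, chr20:31605283-31606515, plus strand), a close relative of ID3, was read at 1345, 1029 and 1515 scaled reads in TPC1, at 1253, 1330 and 1140 in D11, at 1313, 1205 and 1259 in WB1 and at 725, 1121 and 1229 in TD5. Only TD5 replicate 1 lay outside the TPC1 range. The log2 fold changes were -0.05 in D11 (-0.37 to 0.27), -0.02 in WB1 (-0.34 to 0.29) and -0.35 in TD5 (-0.67 to -0.03), with limma adjusted p = 0.833, 0.915 and 0.144.

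SMAD6 (ENSG00000137834, chr15:66702236-66782849, plus strand), an inhibitory SMAD that acts mainly on the BMP branch, was read at 387, 305 and 385 scaled reads in TPC1, at 343, 397 and 402 in D11, at 354, 298 and 349 in WB1 and at 238, 283 and 310 in TD5. SMAD7 (ENSG00000101665, chr18:48919853-48950965, minus strand), the inhibitory SMAD that brings ubiquitin ligases to TGFBR1, was read at 397, 330 and 469 in TPC1, at 468, 434 and 487 in D11, at 482, 380 and 421 in WB1 and at 284, 342 and 374 in TD5. For both genes TD5 had the lowest library and the lowest mean, and it overlapped TPC1. Against TPC1, TD5 had a log2 fold change of -0.35 for SMAD6 (-0.59 to -0.11, limma adjusted p = 0.0558) and of -0.24 for SMAD7 (-0.50 to 0.02, limma adjusted p = 0.222). D11 and WB1 lay between -0.10 and 0.22 for both genes against TPC1, with limma adjusted p from 0.177 to 0.591.

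ID1, ID3, SMAD6 and SMAD7 went up and down together from library to library, within lines as well as between them. Across the 12 libraries Pearson's r was 0.866 for SMAD6 and SMAD7, 0.800 for ID1 and ID3, 0.800 for SMAD6 and ID1, 0.784 for SMAD7 and ID1, 0.782 for SMAD6 and ID3 and 0.651 for SMAD7 and ID3. Genes outside the 4 followed each of them more closely. The gene ranked 3 by r reached 0.899 for SMAD6, 0.894 for SMAD7, 0.879 for ID1 and 0.944 for ID3. The share of all gene pairs at such values was not computed, so the correlations are not shown to be particular to these 4. After each line's mean was taken off, r lay between 0.735 for SMAD6 and ID3 and 0.884 for SMAD7 and ID3. TPC1 replicate 2 and TD5 replicate 1 were the lowest of their line for all 4 genes, as was WB1 replicate 2. These are correlations over 12 libraries that share 4 lines, given as a description, and the depth of those 3 libraries, 17160000, 12700000 and 16460000 reads, was in the middle, lowest and lowest of its line. The main transcripts of the 4 genes are close in GC content, at 57.9% for ID1, 56.7% for ID3, 58.8% for SMAD6 and 57.0% for SMAD7. The correlations were not recomputed with the correction for GC content, and whether a shared effect of GC content enters them was not tested. SMAD3, with 51.1% GC, ran against them within lines, with r of -0.881 with SMAD7, -0.859 with ID3, -0.739 with ID1 and -0.627 with SMAD6.

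**Figure D3:**
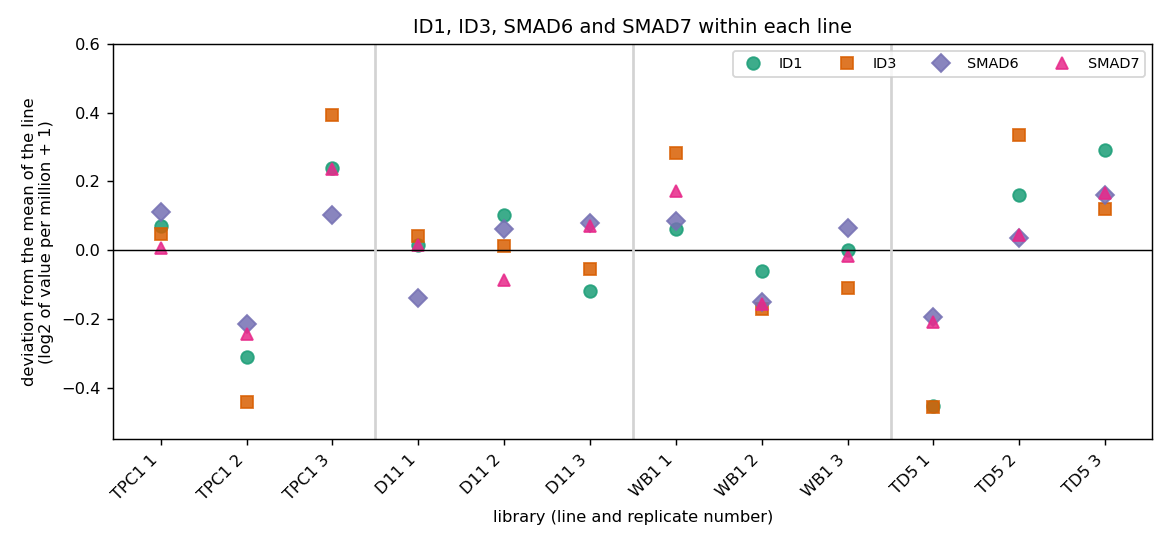
Deviation of ID1, ID3, SMAD6 and SMAD7 from the mean of their own line (vertical axis, log2 of value per 1000000 + 1) in each of the 12 libraries (horizontal axis). All 4 genes lie below 0 in TPC1 replicate 2, WB1 replicate 2 and TD5 replicate 1, and above 0 in TPC1 replicates 1 and 3. In D11 replicate 3, SMAD6 and SMAD7 lie above 0 and ID1 and ID3 below it.

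For these 4 genes, the 250 bases before the start of the main transcripts are shown, from RefSeq (GRCh38.p14). Every GTCT or its reverse complement AGAC, the short element that SMAD3 and SMAD4 bind, is in capitals.
SMAD6 promoter, chr15:66701986-66702235, plus strand: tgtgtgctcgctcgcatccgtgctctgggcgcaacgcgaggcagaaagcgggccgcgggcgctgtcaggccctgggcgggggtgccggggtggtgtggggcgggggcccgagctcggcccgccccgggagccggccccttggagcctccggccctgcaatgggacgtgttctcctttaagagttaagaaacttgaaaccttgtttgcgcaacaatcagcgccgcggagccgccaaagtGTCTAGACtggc
SMAD7 promoter, chr18:48950966-48951215, minus strand: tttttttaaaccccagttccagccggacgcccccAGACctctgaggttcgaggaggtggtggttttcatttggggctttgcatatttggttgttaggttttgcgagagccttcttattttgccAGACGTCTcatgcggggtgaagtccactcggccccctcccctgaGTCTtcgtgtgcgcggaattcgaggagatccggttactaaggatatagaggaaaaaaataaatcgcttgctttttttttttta
ID1 promoter, chr20:31605039-31605288, plus strand: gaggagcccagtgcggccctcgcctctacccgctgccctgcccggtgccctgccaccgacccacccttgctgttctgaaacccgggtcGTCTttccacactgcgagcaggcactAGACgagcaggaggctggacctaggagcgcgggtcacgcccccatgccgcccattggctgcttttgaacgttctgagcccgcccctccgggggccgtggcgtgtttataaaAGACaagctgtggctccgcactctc
ID3 promoter, chr1:23559502-23559751, minus strand: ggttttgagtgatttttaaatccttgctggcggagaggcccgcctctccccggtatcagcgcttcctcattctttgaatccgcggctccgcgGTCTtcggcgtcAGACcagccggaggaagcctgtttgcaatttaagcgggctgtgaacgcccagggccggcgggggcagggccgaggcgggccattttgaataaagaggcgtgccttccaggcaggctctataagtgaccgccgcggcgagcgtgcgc
GTCT on either strand occurred 2 times in the SMAD6 window, 4 in SMAD7, 3 in ID1 and 2 in ID3. It is so short that 77.5% of 35116 promoter windows of the same length hold it. Whether SMADs act through any match in these windows was not tested, nor was any link to the correlations above. Its palindromic form GTCTAGAC, in which GTCT and AGAC sit end to end, was held by 64 windows, or 0.182%, and SMAD6's was among them. Of the other 6 genes, TGFB2 held 3 matches of GTCT, INHBA 2, TGFBR1 1 and TGFBR2 1, and TGFB1 and SMAD3 held 0. Of the longer forms searched on both strands, CAGACA, which contains AGAC, was in 13.6% of windows and in that of TGFB2 alone of the 10, and GGCGCC, a GC-rich element bound by SMADs, was in 16.4% and in that of SMAD3 alone.

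The clones were also compared with each other, since each is a separate line from 1 cell. INHBA separated WB1 from the other clones: it was higher in WB1 than in D11 by 0.80 on the log2 scale (0.44 to 1.16, limma adjusted p = 0.00618) and lower in TD5 than in WB1, with a log2 fold change of -1.26 (-1.62 to -0.90, limma adjusted p = 0.000168). ID3 was lower in TD5 than in D11, at -0.62 (-1.01 to -0.22, limma adjusted p = 0.0249), and without TD5 replicate 1 that difference was -0.39 and not called (limma adjusted p = 0.133). It was also not called without D11 replicate 1, 2 or 3, at -0.60, -0.61 and -0.65 with limma adjusted p = 0.0603, 0.0735 and 0.0554.

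In WB1 against D11, 1 of 10 was called higher, where 1.97% of tested genes were, and 0 lower, where 0.88% were. For TD5 against D11 the counts were 0 higher, against 1.67%, and 1 lower, against 2.32%. For TD5 against WB1 they were 0 higher, against 0.611%, and 1 lower, against 1.72%. At an adjusted p under 0.05 regardless of fold, 2 of 10 passed in WB1 against D11 (8.07% of tested genes), 4 in TD5 against D11 (23.2%) and 2 in TD5 against WB1 (13.6%). The genes that passed in TD5 against D11 were TGFB1, higher by 0.23 (0.10 to 0.37), SMAD6 at -0.44 (-0.68 to -0.19), SMAD7 at -0.46 (-0.72 to -0.20) and ID3. TD5 was the lowest clone for most of the 10: 9 had a log2 fold change below 0 against WB1, with a median of -0.26 beside -0.05 over all tested genes, and 8 against D11, with a median of -0.28 beside -0.05. Over all tested genes, 39.7% were above 0 against WB1 and 41.6% against D11.

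The other genes of the TGF-beta and BMP pathway were counted from lists by role that hold 79 further genes of the table, of which 64 were tested. Against TPC1, 0 were called higher and 3 lower in D11, 4 higher and 7 lower in WB1, and 2 higher and 5 lower in TD5. The shares of all tested genes were 2.89% (higher) and 1.95% (lower) for D11, 3.39% and 1.59% for WB1, and 1.12% and 1.48% for TD5. Their median log2 fold change was 0.09 in D11, 0.11 in WB1 and -0.0034 in TD5. With the 10 genes included, none of 11 tested receptors and none of 8 SMADs was called in any clone against TPC1, counts near what those shares of all tested genes give for so few genes. The receptor median was 0.20 in D11, 0.13 in WB1 and 0.08 in TD5, beside 0.05, 0.06 and 0.00059 over all tested genes, and that of the SMADs 0.23, 0.10 and -0.05.

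Of these other genes, TAGLN was the one called in all 3 clones against TPC1. TAGLN, an actin-binding protein of contractile cells and a TGF-beta target, fell from 138 to 174 scaled reads in TPC1 to 77 to 90 in D11, 48 to 91 in WB1 and 32 to 51 in TD5, with log2 fold changes of -0.74, -1.06 and -1.58 (limma adjusted p = 0.00378, 0.000274 and 1.05e-05). TGFBI, a matrix protein named for its induction by TGF-beta, was called lower in D11 and was read at 2099 to 2130 in TPC1, 123 to 150 in D11, 2065 to 2389 in WB1 and 1704 to 1805 in TD5. Its log2 fold change in D11 was -3.77 (limma adjusted p = 5.97e-16), and WB1 and TD5 were both called higher than D11. ANGPTL4, a secreted inhibitor of lipoprotein lipase that TGF-beta can induce, stood at 133 to 227 in TPC1, 331 to 563 in WB1 and 324 to 413 in TD5, with log2 fold changes of 1.32 and 1.02 (limma adjusted p = 7.60e-05 and 0.00131), and at 99 to 120 in D11, with a log2 fold change of -0.49 under 1.5-fold.

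Regulators in the matrix and at the cell surface were also called. In WB1, LTBP1, which holds latent TGF-beta in the matrix, rose with a log2 fold change of 0.90, and THBS1, which can free the ligand, fell with one of -0.86 (limma adjusted p = 0.000294 and 0.000215). THBS1 was below all TPC1 libraries in all 9 clone libraries, where 51.1% of tested genes in D11, 45.7% in WB1 and 27.1% in TD5 did not overlap TPC1. THBS1 stood at -0.44 in D11 and -0.57 in TD5, both under 1.5-fold (limma adjusted p = 0.0175 and 0.00917). LTBP1 stood at 0.39 in D11, under 1.5-fold (limma adjusted p = 0.0439), and at 0.12 in TD5 (limma adjusted p = 0.649). In TD5, ITGB8, an integrin chain that activates latent TGF-beta, rose with a log2 fold change of 0.77 (limma adjusted p = 0.00425). BAMBI, a decoy receptor that dampens the pathway, fell in D11 at -0.71 and in TD5 at -0.69 (limma adjusted p = 0.00212 and 0.00503), and the TD5 call ended without TPC1 replicate 1, at -0.58. THBS1 was read at 13809 to 35354 scaled reads and BAMBI at 58 to 138.

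Of the remaining genes with the largest changes, GDF15 and NEDD4L were called lower in WB1. GDF15, a stress-induced ligand of the family, and NEDD4L, a ubiquitin ligase for activated SMADs, had log2 fold changes of -0.83 and -0.81 there (limma adjusted p = 3.70e-05 and 1.69e-07). Every clone library was below all TPC1 libraries for NEDD4L, a separation to be read beside the shares of tested genes given for THBS1. NEDD4L stood at -0.25 in D11 and -0.56 in TD5, under 1.5-fold (limma adjusted p = 0.0052 and 1.05e-05). GDF15 was at -0.55 in TD5, also under 1.5-fold (limma adjusted p = 0.00212), and at -0.12 in D11 (limma adjusted p = 0.381). CDKN1A, the cell cycle inhibitor p21, fell in TD5 with a log2 fold change of -0.71 (limma adjusted p = 0.000319). It stood at -0.47 in WB1 and at 0.35 in D11, both under 1.5-fold (limma adjusted p = 0.00327 and 0.0185). ID4, a relative of ID1 and ID3, fell in TD5 with a log2 fold change of -0.78 (limma adjusted p = 0.0210), and it was not called without TPC1 replicate 1 or 3 or TD5 replicate 1 or 2, with values from -0.73 to -0.63. Of the 11 tested BMP target genes, ID1, ID3, SMAD6 and SMAD7 included, TD5 had 3 called lower, ID3, ID4 and BAMBI, and none higher. Of all tested genes, 1.48% were called lower in TD5 and 1.12% higher. The median log2 fold change of this list in TD5 was -0.35 beside 0.00059 over all tested genes. The same list had a median of 0.03 in D11 and -0.10 in WB1, with 1 and 2 called lower.

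**Figure D4:**
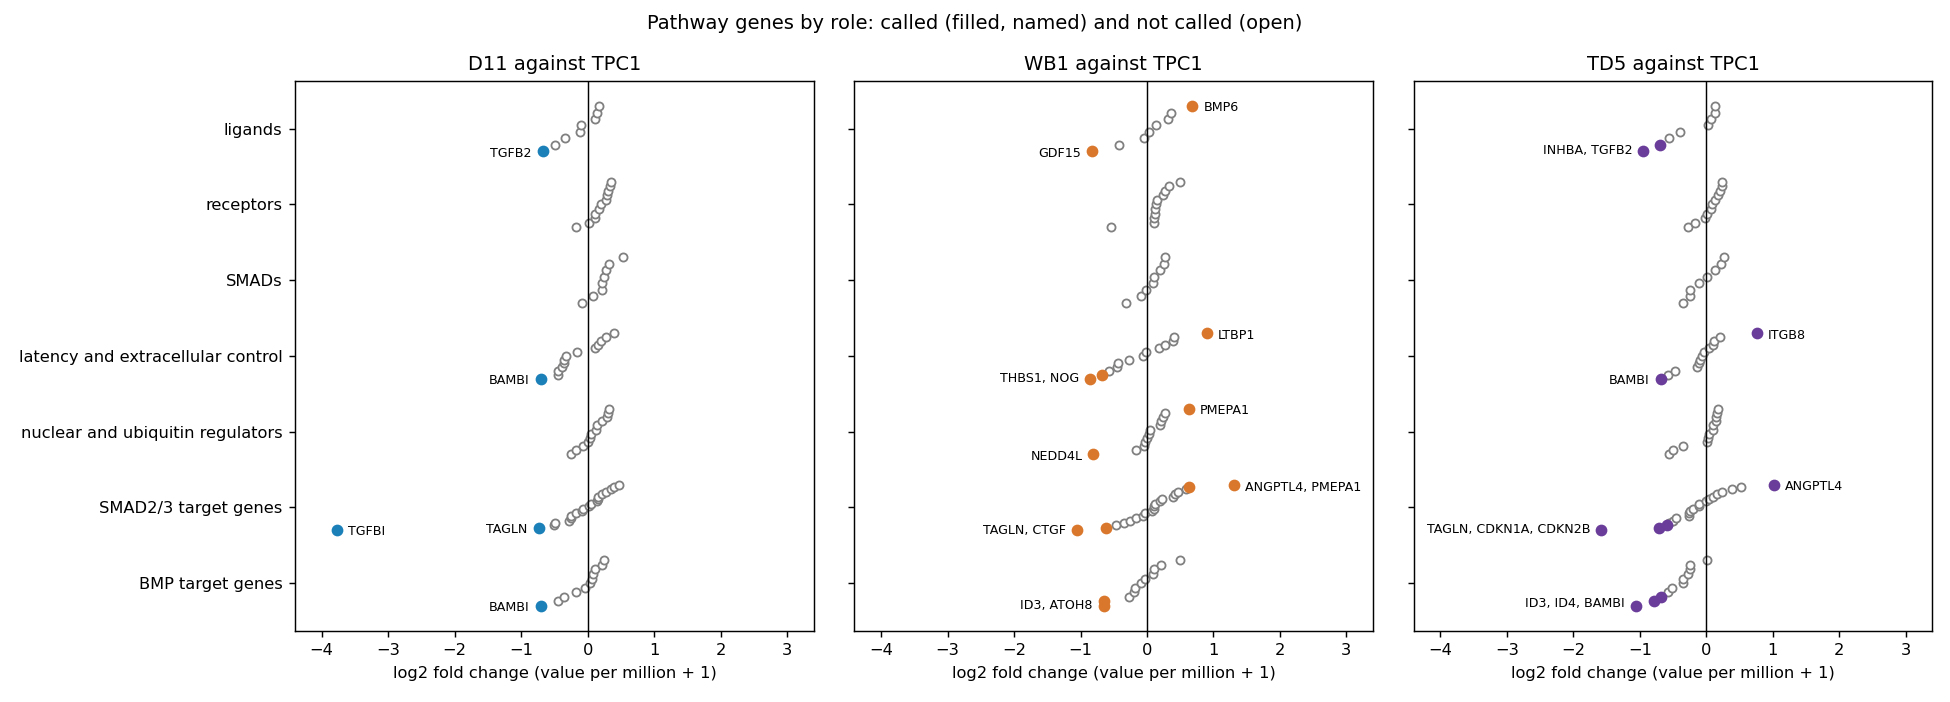
Log2 fold change of (value per 1000000 + 1) in each clone against TPC1 (horizontal axes) of the tested pathway genes, the 10 genes included, in rows by role; filled points with names were called, open points were not, names in a row run from the largest change, and a gene in 2 lists is drawn in both. TGFBI in D11, at -3.77, stands apart from every other gene.

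For each of the 10 genes, the tested gene whose log2 level followed it most closely over the 12 libraries was found. TGFB1 was nearest to SH3BGRL3 (Pearson's r = 0.965), TGFB2 to SHISA9 (0.907), TGFBR1 to MTDH (0.979), TGFBR2 to TSC22D1 (0.983), SMAD3 to UBL4A (0.945), SMAD6 to TRIM58 (0.953), SMAD7 to GDAP1 (0.934), ID1 to DLX2 (0.889), ID3 to DUSP1 (0.967) and INHBA to HECW2 (0.942). Each is the highest over all other tested genes, from 12 libraries that share 4 lines, and is given as a description. TSC22D1, whose name comes from its stimulation by TGF-beta, had the pattern of TGFBR2, at 2166 to 3075 scaled reads in TPC1, 3540 to 4062 in D11, 4177 to 4369 in WB1 and 2808 to 3785 in TD5. ANTXR2 and MET followed TGFBR2 nearly as closely, at r of 0.98 and 0.977, so the ranking does not single out TSC22D1. DUSP1, an early-response phosphatase of MAP kinases, had the pattern of ID3, at 1676 to 2241 in TPC1 and 1049 to 1460 in TD5.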

How the data were processed

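RNA from TPC1 and the Dicer1 (+/-) clones D11, WB1 and TD5 was sequenced as stranded, paired-end mRNA libraries. Per the study's methods and the submitters' processing notes, the authors mapped reads to GRCh38 with STAR 2.5.3a, counted them per gene with HTSeq 0.9.1 on Ensembl annotation and normalised the counts to 20000000 aligned reads. What was deposited is therefore a score, with whole numbers summing to 20009833 to 20014191 per library, and not raw counts, so no count model was used here.

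Values per 1000000 were taken as log2(value + 1), and genes at 1 per 1000000 or more in at least 3 libraries were kept. limma 3.58.1 (R 4.3.3, lmFit and eBayes with trend) was fitted to all 12 libraries with 1 mean per line, 2-sided, with Benjamini-Hochberg adjustment over the 16027 tested genes of each comparison. The fit was tested on simulated data. Depth was estimated from the steps between low values, and intervals cover the spread between libraries only. The 10 genes, the pathway lists and the microRNA families were chosen with earlier results of these data known. Of the other pathway genes, up to 6 called ones per clone were named by size of change, and 1 nearest gene was named for each of the 10.

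Libraries of TD5 and D11 with the same replicate number deviated together from their line means (r of 0.107, 0.172 and 0.348 over genes). The labels name no shared batch, and the main fit did not pair libraries. Pairing by number entered only as a replicate block over all libraries, among the alternatives. Promoter and microRNA sequences came from RefSeq, and gene positions, exon lengths and 3′ UTRs from GENCODE v44. Alternatives covered the filter, the pseudocount, scaling, voom weights, which lines entered the fit, a replicate block, each library left out and, chosen after seeing the data, GC content.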

Additional observations from a re-analysis of the deposited data

Results flagged for a closer look

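Differences between clones that passed an adjusted p of 0.05 in limma, under the same comparison with TPC1, were singled out for 6 of the 10 genes on either side of 1.5-fold. INHBA was higher in WB1 than in D11 by 0.7968 on the log2 scale (limma adjusted p = 0.00618) and lower in TD5 than in WB1, at -1.26 (limma adjusted p = 0.000168). ID3 was lower in TD5 than in D11, at -0.6179 (limma adjusted p = 0.0249). SMAD6 and SMAD7 were lower in TD5 than in D11, at -0.436 and -0.4577 (limma adjusted p = 0.0122 and 0.0134). TGFB1 was higher in WB1 and in TD5 than in D11, by 0.2341 and 0.2322 (limma adjusted p = 0.0307 and 0.0158). SMAD3 was higher in TD5 than in WB1 by 0.3209 (limma adjusted p = 0.00981). With 1 library of either clone left out, the lesser of these differences missed the adjusted p of 0.05 at least once: TGFB1 fell to 0.188 in WB1 and 0.186 in TD5 without D11 replicate 2 (limma adjusted p = 0.175 and 0.0915), SMAD6 and SMAD7 stood at -0.34 and -0.35 without TD5 replicate 1 (limma adjusted p = 0.0615 and 0.0670), SMAD3 at 0.25 without WB1 replicate 1 (limma adjusted p = 0.0582), and ID3 at -0.39 without TD5 replicate 1 (limma adjusted p = 0.133). Both INHBA differences passed it in each such case. The causes of these differences were not tested.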

How the results depend on the processing

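None of the 1320 values of the 10 genes under the alternatives reversed the direction of a called change, 13 lost a call, 6 gained one, and 28 changed sign while called neither before nor after. The filters, the replicate block, a fit of the compared lines only and the loss of a library outside the comparison left log2 fold changes as they were. Such alternatives could change a call through the adjusted p alone and could not reverse a direction. The number of the 10 called against TPC1 was 1 in both D11 and WB1. With a correction for GC content, with or without the replicate block, it was 2 in D11 (INHBA added, at -0.73) and 0 in WB1 (ID3 at -0.58, just under 1.5-fold). With single libraries left out it ranged from 0 to 2 in D11 and 0 to 1 in WB1. For TD5 against D11, 1 was called, and 0 with no filter on low values, with a pseudocount of 4 or with median-of-ratios scaling, where ID3 stood at -0.62, -0.57 and -0.57 (limma adjusted p = 0.0673, 0.0268 and 0.0360). With single libraries left out that count ranged from 0 to 2, INHBA being called without D11 replicate 1 (-0.67) or TD5 replicate 3 (-0.61). The causes of these changes were not tested.

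The replicate block changed no call. With it, ID3 in TD5 against D11, where libraries with the same number deviated together, kept -0.62 with a limma adjusted p of 0.0414. The block raised the adjusted p of 2 differences under 1.5-fold above 0.05, TGFBR1 in WB1 against TPC1 (0.0581) and TGFB1 in WB1 against D11 (0.0555). In the other comparisons, libraries with the same number did not all deviate together (lowest r -0.273, highest 0.106). The correction for GC content, available for 99.1% of tested genes, also took TGFB1 in TD5 against D11 to 0.12 (limma adjusted p = 0.201). For the other pathway genes, whose alternatives were chosen after seeing the data, a pseudocount of 4 took TAGLN and BAMBI in D11 and ITGB8, BAMBI and ID4 in TD5 under 1.5-fold. Median-of-ratios scaling moved the median of all genes by at most 0.0575 in size. Depth is an estimate here, and INHBA, at 59 to 229 scaled reads, has the fewest reads behind it of the 10.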
